A study of Mus musculus with 9 samples.

Results

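The enzymes that place, keep and remove methyl groups on cytosine in DNA were followed over 9 microarrays of D3-pOct4 mouse embryonic stem cells. They are 8 genes, namely Dnmt3a, Dnmt3b and Dnmt3l (de novo methylation), Dnmt1 and Uhrf1 (maintenance), and Tet1, Tet2 and Tet3 (oxidation of methylcytosine). Their members were every probe set whose only annotated gene symbol is among these names, which gave 8 of the 18194 genes named on the array and 20 of its 45101 probe sets, 8 for de novo methylation, 5 for maintenance and 7 for the Tet genes. All 20 passed the filter on low signals. The measured value is the scaled signal intensity of a probe set on a linear scale, and every comparison below was made on log2(signal + 3).

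The study grew the cells for 7 days in 3 conditions, with 3 arrays in each. The donor cultures had no leukemia inhibitory factor (LIF) but received 2 µM DETA/NO, which gives off nitric oxide over time. The no LIF cultures had neither addition, and the LIF cultures had 1000 U/ml of the factor, a cytokine that holds mouse embryonic stem cells undifferentiated. All 9 share the D3-pOct4 line and a medium with fetal bovine serum. Replicates 1, 2 and 3 of each group carry passages 31, 33 and 34 of this line. The labels do not say whether the replicates were otherwise separate cultures, so a p-value reflects spread among these arrays alone, which may be technical.

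Dnmt3a and Dnmt3b add methyl groups to CpG sites that had none, and Dnmt3l, which has lost the catalytic activity, helps them to act. Dnmt1 copies the pattern to the new strand after replication, guided by Uhrf1, which binds CpG sites methylated on the parental strand alone. Tet1, Tet2 and Tet3 oxidise methylcytosine, a step towards its removal. In mouse embryonic stem cells, naive cells have low DNA methylation with high Tet2, whereas Dnmt3a and Dnmt3b are high in primed epiblast cells.

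All 8 embryonic stem cell markers (Pou5f1, Sox2, Nanog, Zfp42, Dppa5a, Tdgf1, Utf1 and Dppa4) lay above the array median on 9 of 9 arrays. Pou5f1 signals ran from 958.3 to 3211. Summed signals of 6 fibroblast or feeder markers were 66.9 to 133.04 in donor cultures, 71.0 to 142.2 without LIF and 67.4 to 142.4 with LIF. Of these 6, Col3a1, Dcn and Lum lay below the array median on all 9 arrays. The others did not, with Thy1 above it on 9 arrays, Col1a2 on 5 and Col1a1 on 3. The median signal was 20.8 to 23.3 on donor replicates 1 and 2 and LIF replicate 1, called the brighter arrays here, and 13.9 to 17.8 on the other 6. None of the brighter arrays was a no LIF array. A fit with brightness as a block therefore cannot fully separate brightness from condition. Socs3, a gene switched on by LIF through STAT3, read 95.8, 405.3 and 126.8 on donor replicates 1 to 3, 102.1, 3054 and 329.8 without LIF, and 3213, 282.01 and 1794 with LIF. The replicate 2 arrays of the no LIF and LIF groups therefore go against their labels for this gene, and directions below follow the labels. Donor replicate 3 and no LIF replicate 1 were the most alike pair of arrays, with a Pearson r of 0.972 across probe sets. The differences of Dnmt3a, Dnmt3b and Tet2, the balances between roles and the correlations are also given without these arrays. The replicate 2 arrays were picked by Socs3, which had a Pearson r of -0.798 with Dnmt3b and 0.578 with Tet2 over the 9 arrays. Values without them are therefore no independent check of a difference from LIF or of a correlation with Dnmt3b.

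Promoter sequences are shown for Dnmt3b and Tet2, the members with the widest spread in signal among those above the array median on every array, and for Dnmt3l, a de novo member that did not follow Dnmt3b. Each is the 250 bases before a RefSeq start on GRCm38.p6, printed 5′ to 3′ on the strand of the gene, with every CpG in capitals. The windows are chr2:153649199-153649448 on the plus strand for Dnmt3b, chr3:133544391-133544640 on the minus strand for Tet2, and chr10:78042037-78042286 on the plus strand for the Dnmt3l start printed here.
Dnmt3b: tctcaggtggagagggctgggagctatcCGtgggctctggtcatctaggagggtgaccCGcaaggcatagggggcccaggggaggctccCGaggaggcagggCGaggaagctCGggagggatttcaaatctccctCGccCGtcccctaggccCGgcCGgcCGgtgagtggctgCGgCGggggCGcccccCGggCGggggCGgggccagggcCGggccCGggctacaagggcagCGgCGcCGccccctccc
Tet2: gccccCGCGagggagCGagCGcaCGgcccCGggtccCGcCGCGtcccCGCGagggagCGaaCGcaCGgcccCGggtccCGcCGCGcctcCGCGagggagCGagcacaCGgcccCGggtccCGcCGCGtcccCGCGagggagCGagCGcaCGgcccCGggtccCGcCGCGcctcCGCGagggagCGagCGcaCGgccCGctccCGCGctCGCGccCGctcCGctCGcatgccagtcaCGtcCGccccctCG
Dnmt3l: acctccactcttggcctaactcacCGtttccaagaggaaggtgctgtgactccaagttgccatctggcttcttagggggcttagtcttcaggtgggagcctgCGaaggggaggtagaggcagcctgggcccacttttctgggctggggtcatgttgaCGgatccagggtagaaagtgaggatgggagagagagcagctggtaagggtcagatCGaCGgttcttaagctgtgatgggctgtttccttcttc

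The Dnmt3b window holds 21 CpG, a number that 16.3% of 32851 RefSeq promoter windows of this length reach. The Tet2 window holds 51, reached by 0.067% of windows. The Dnmt3l window holds 5, and 49.6% of windows have as few, the median being 6. All 8 genes matched the promoter table, with 15 windows in all. The motif TTCNNNGAA, which reads the same on both strands and is the general form of a STAT site, occurs in 7.02% of all windows. Among the 15 member windows it occurs in 1, a downstream Dnmt3l start at chr10:78049592-78049841. A match or its absence is a description of these letters only.

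Dnmt3b and Tet2 moved widely over the arrays and mostly within groups, and none of the 8 genes separated the 3 conditions. In donor cultures against no LIF, 0 of the 20 member probe sets passed an adjusted p of 0.05 in limma, where 0% of the 29811 tested probe sets did. At an unadjusted p under 0.05 the members numbered 0 of 20, against 5.02% of all. For no LIF against LIF the adjusted count was 0 of 20 against 0% of all, and the unadjusted count was 0 of 20 against 1.54%. For donor cultures against LIF the adjusted count was 0 of 20 against 0% of all, and the unadjusted count was 0 of 20 against 1.94%. Donor and no LIF signals overlapped for 20 of 20 member probe sets, where 8.92% of all probe sets did not overlap, and so did no LIF and LIF signals, where 7.6% did not. Donor and LIF signals were apart for 1 member probe set, of Dnmt1, where 3.19% of all probe sets were lower in donor cultures without overlap and 5.98% were apart in either direction. The number of 3 arrays per group limits the precision of every difference given.

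**Figure D1:**
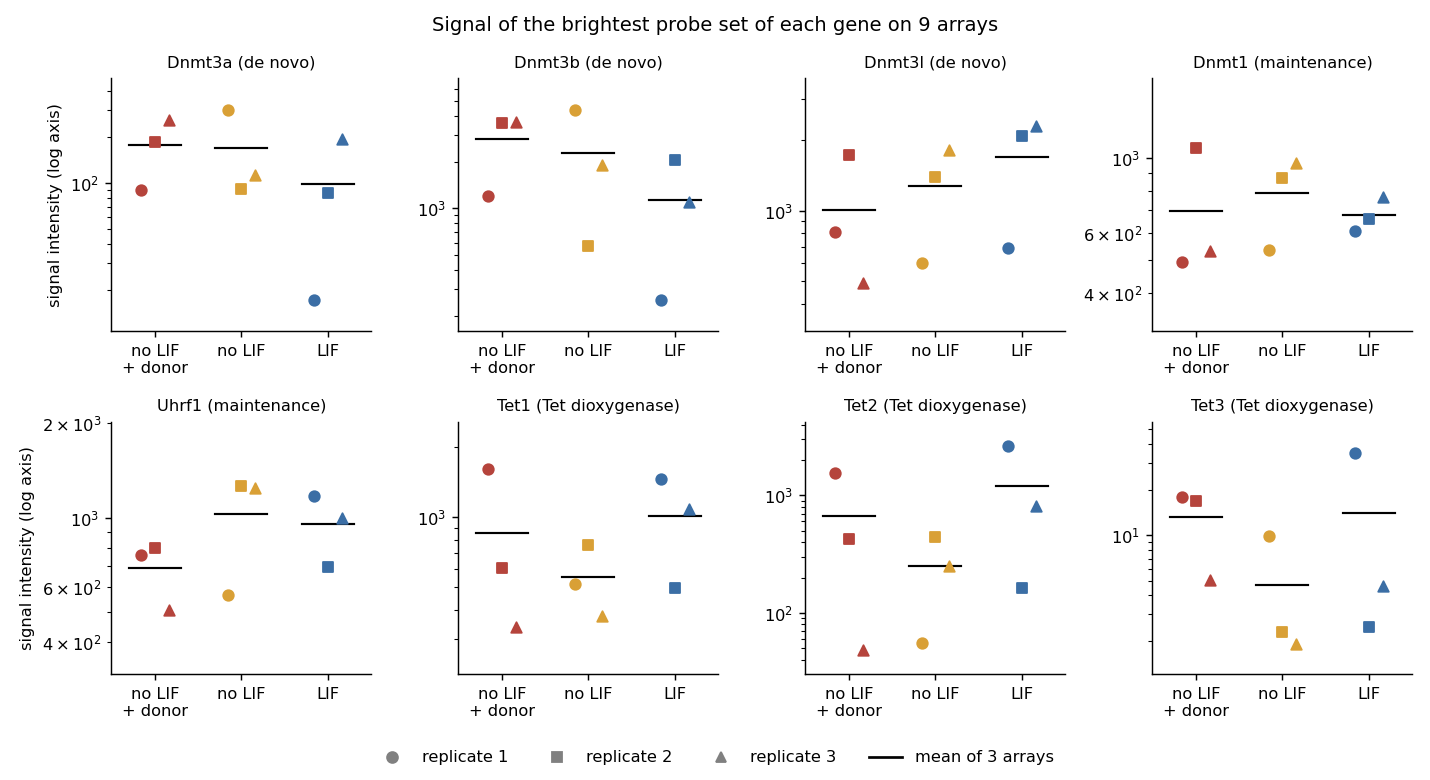
Signal intensity (log axis) of the brightest probe set of each gene on the 9 arrays, with donor cultures on the left, no LIF in the middle and LIF on the right; each point is an array, shapes mark replicates and lines are means of 3 arrays. The groups overlap in all 8 panels, and Tet2 and Dnmt3b spread over 55.1-fold and 17.1-fold.

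The spread over arrays was set against that of 13376 genes, each by its brightest tested probe set. Tet2 had an SD of 1.96 on the log2 scale over the 9 arrays, above 99.8% of the 3344 genes with the highest mean signal. Dnmt3b had an SD of 1.35, above 98.5% of them. Dnmt1, at 0.40, and Uhrf1, at 0.49, lay at the 31.9th and 49.4th percentiles of the same 3344 genes, where the median was 0.49. Dnmt1 was thus narrower in spread than most genes of like signal, while Uhrf1 lay near their median. Dnmt3l, at 0.85, and Tet1, at 0.82, lay between. The groups accounted for 26.5% of the variation of Dnmt3b, 18.3% of that of Tet2, 25.2% of that of Uhrf1 and 6.53% of that of Dnmt1, where the median over all genes was 17.6%.

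Among the de novo genes, Dnmt3b, the enzyme that methylates CpG islands in early development, was read by a pair of probe sets. The brighter, 1449052_a_at, had signals of 1212.5, 3570.45 and 3659 on donor replicates 1, 2 and 3, 4359.7, 570.2 and 1915 on the no LIF replicates, and 255.4, 2062 and 1099 on the LIF replicates. The highest array was no LIF replicate 1 and the lowest LIF replicate 1, and the 3 groups overlapped. The means were 2814 ± 1388 in donor cultures, 2282 ± 1921 without LIF and 1139 ± 904 with LIF (SD, n = 3 each). In the fit over 9 arrays, the log2 difference of donor cultures from LIF was 1.59 (SE 0.85, 95% interval -0.30 to 3.47), with an adjusted p of 0.9997 in limma and an unadjusted p of 0.0909. It was above 0 in 3 of 3 passages; a common direction in all passages, up or down, was seen for 7 of the 20 member probe sets and 20.9% of all probe sets. Donor cultures differed from no LIF by 0.58 (SE 0.85, adjusted p = 0.963 in limma) and no LIF from LIF by 1.01 (SE 0.85, adjusted p = 0.973 in limma). Without the replicate 2 arrays of the no LIF and LIF groups, these 3 differences were 2.24 for donor over LIF, -0.20 for donor over no LIF and 2.44 for no LIF over LIF, with the smallest adjusted p at 0.553. Without the alike pair they were 1.32, 0.99 and 0.32. As each array was left out in turn, donor over LIF ran from 0.74 to 2.24 and no LIF over LIF from 0.16 to 1.79, both lowest without LIF replicate 1. The dimmer probe set, 1418351_a_at, ran from 88.7 on LIF replicate 1 to 1978 on no LIF replicate 1, with a Pearson r of 0.977 to the first over the 9 arrays.

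Dnmt3a, the other catalytic de novo enzyme, was read by 5 probe sets that did not all follow the same course. The brightest, 1423064_at, had signals of 90.5, 184.4 and 257.8 on the donor replicates, 301.9, 90.8 and 113.1 on the no LIF replicates, and 17.1, 85.5 and 193.97 on the LIF replicates. As for Dnmt3b, the top array was no LIF replicate 1 and the lowest LIF replicate 1. The means were 178 ± 83.8 in donor cultures, 169 ± 116 without LIF and 98.9 ± 89.2 with LIF (SD, n = 3 each). Donor cultures differed from LIF by 1.24 (SE 0.79, adjusted p = 0.9997 in limma) on the log2 scale and were higher in 3 of 3 passages. No LIF cultures differed from LIF by 1.08 (SE 0.79, adjusted p = 0.973 in limma). With the replicate 2 arrays of the no LIF and LIF groups left out, donor over LIF was 1.4 and no LIF over LIF 1.58, and without the alike pair they were 0.91 and 0.57. Leaving out each array in turn gave 0.33 to 1.98 for donor over LIF and 0.18 to 1.82 for no LIF over LIF, both lowest without LIF replicate 1. The difference of donor cultures from no LIF was 0.15 (SE 0.79), turned to -0.07 when the arrays were centred on their medians, and ran from -0.18 to 0.67 as each array was left out in turn. Probe sets 1423065_at and 1423066_at followed Dnmt3b with r of 0.823 and 0.826, close to the 0.859 of 1423064_at. The others, 1423063_at and 1460324_at, had r of 0.354 and 0.535 and spread over 2.27-fold and 3.97-fold, where 1423066_at spread over 54.1-fold. Whether the 5 probe sets read different transcripts was not tested.

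Dnmt3l, the catalytically inactive partner, has 1 probe set, 1425035_s_at, of a class that can bind more than a single transcript. Its signals were 812.5, 1726 and 490.85 on the donor replicates, 598.8, 1397 and 1812 on the no LIF replicates, and 690.9, 2078 and 2287 on the LIF replicates. Its lowest arrays were the alike pair, donor replicate 3 and no LIF replicate 1, on which Dnmt3b was among its highest. The means were 1009.9 ± 641 in donor cultures, 1269 ± 617 without LIF and 1685 ± 867 with LIF (SD, n = 3 each). On the log2 scale, donor cultures differed from LIF by -0.75 (SE 0.60, adjusted p = 0.9997 in limma), from no LIF by -0.38 (SE 0.60), and no LIF from LIF by -0.37 (SE 0.60). The last was below 0 in 3 of 3 passages; a common direction in this comparison was seen for 2 of the 20 member probe sets and 17.8% of all, and became 0.10 without no LIF replicate 1. The de novo genes thus did not share a direction against LIF, with Dnmt3a and Dnmt3b above it and Dnmt3l below it in point estimate, each within an interval that holds 0.

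**Figure D2:**
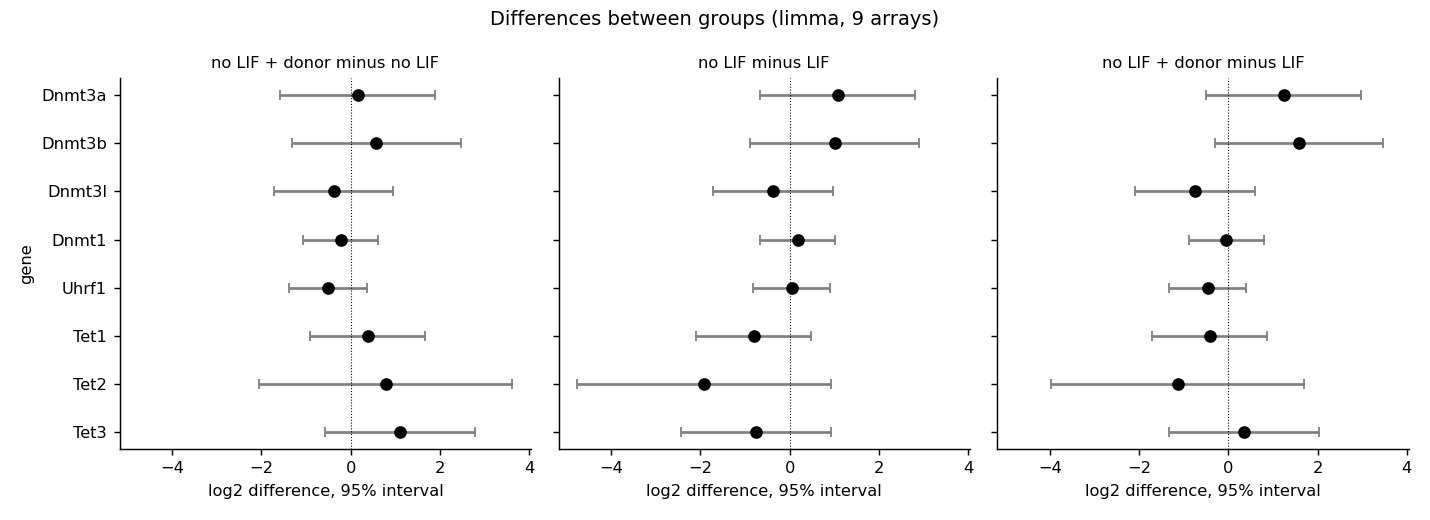
Log2 differences of each gene (brightest probe set) with 95% intervals from limma over 9 arrays, for donor cultures minus no LIF, no LIF minus LIF, and donor cultures minus LIF. All 24 intervals include 0, and the widest are those of Tet2.

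Of the maintenance genes, Dnmt1, the methyltransferase that follows the replication fork, was read by 3 probe sets. The brightest, 1435122_x_at, is of a class that can bind related transcripts and had signals of 494.8, 1067 and 530.97 on the donor replicates, 533.8, 870.5 and 964.7 on the no LIF replicates, and 608.3, 661.4 and 765.6 on the LIF replicates. Its highest value was 2.16 times its lowest, the narrowest range of the 8 genes. The differences were -0.22 for donor over no LIF (SE 0.38, adjusted p = 0.965 in limma), 0.18 for no LIF over LIF (SE 0.38) and -0.04 for donor over LIF (SE 0.38) on the log2 scale.

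The second Dnmt1 probe set, 1422946_a_at, read 413.5, 418.1 and 475.4 on the donor replicates, 474.4, 738.5 and 805.9 on the no LIF replicates, and 533.5, 713.5 and 712.4 on the LIF replicates. Every donor array lay below every LIF array, with means of 436 ± 34.5 in donor cultures and 653 ± 104 with LIF (SD, n = 3 each). The log2 difference was -0.57 (SE 0.32, 95% interval -1.27 to 0.13), with an unadjusted p of 0.101 and an adjusted p of 0.9997 in limma. This is the member probe set named above as apart. The other Dnmt1 probe sets did not show it, with -0.04 for 1435122_x_at and 0.02 for 1447877_x_at. On the no LIF arrays the same probe set averaged 673 ± 175, and donor cultures differed from them by -0.59 (SE 0.32, adjusted p = 0.929 in limma).

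Uhrf1, the reader that brings Dnmt1 to hemimethylated sites, had signals of 760.4, 798.9 and 505.5 on the donor replicates, 567.9, 1265 and 1239.6 on the no LIF replicates, and 1172, 693.6 and 996.96 on the LIF replicates, by 1415810_at. The alike pair of arrays held its lowest values. The means were 688 ± 159 in donor cultures, 1024 ± 395 without LIF and 954 ± 242 with LIF (SD, n = 3 each). Donor cultures differed from no LIF by -0.51 (SE 0.39, adjusted p = 0.929 in limma) and from LIF by -0.47 (SE 0.39, adjusted p = 0.9997 in limma) on the log2 scale. The difference of no LIF from LIF was 0.05 (SE 0.39), and was -0.08 after quantile normalization and -0.36 without the replicate 2 arrays of both groups. The dimmer probe set, 1415811_at, ran from 96.04 on donor replicate 2 to 394.99 on LIF replicate 1 and was below LIF in 3 of 3 passages of the donor cultures, at -0.71 (SE 0.49, adjusted p = 0.9997 in limma).

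Among the erasers, Tet2, a dioxygenase that mouse embryonic stem cells express together with Tet1, had the widest range of the 8 genes. Its brighter probe set, 1438781_at, read 1542, 427.9 and 48.1 on the donor replicates, 55.7, 442.03 and 251.97 on the no LIF replicates, and 2648, 162.1 and 819.6 on the LIF replicates. LIF replicate 1 was highest, and the alike pair, donor replicate 3 and no LIF replicate 1, was lowest. The means were 673 ± 776 in donor cultures, 249.9 ± 193 without LIF and 1210.05 ± 1288 with LIF (SD, n = 3 each), so that in donor and LIF cultures the SD exceeded the mean. On the log2 scale no LIF differed from LIF by -1.92 (SE 1.28, 95% interval -4.76 to 0.92, adjusted p = 0.973 in limma). Donor cultures differed from LIF by -1.14 (SE 1.28, adjusted p = 0.9997 in limma) and from no LIF by 0.78 (SE 1.28, adjusted p = 0.965 in limma). Without the replicate 2 arrays of the no LIF and LIF groups, no LIF differed from LIF by -3.59, with an adjusted p of 0.553 in limma. Without the alike pair that difference was -1.08, and donor over LIF was 0.20. With array brightness as a block, donor over no LIF was -1.50. The dimmer probe set, 1455300_at, was below LIF in 3 of 3 passages of the donor cultures, at -1.33 (SE 0.64, 95% interval -2.75 to 0.09), with the smallest unadjusted p of any member in any comparison, 0.063 in limma.

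Tet1, the other Tet gene with signals well above the array median, read 1609, 606.6 and 337.8 on the donor replicates, 516.98, 762.8 and 377.5 on the no LIF replicates, and 1462, 498.5 and 1088 on the LIF replicates, by 1455425_at. Donor replicate 1 and LIF replicate 1, both brighter arrays, were highest. The means were 851 ± 670.2 in donor cultures, 552 ± 195 without LIF and 1016 ± 486 with LIF (SD, n = 3 each). On the log2 scale, no LIF differed from LIF by -0.80 (SE 0.58, adjusted p = 0.973 in limma), donor cultures from LIF by -0.42 (SE 0.58) and donor cultures from no LIF by 0.38 (SE 0.58). With array brightness as a block, the last was -0.46. With the replicate 2 arrays of both groups left out, no LIF differed from LIF by -1.51 (adjusted p = 0.553 in limma). Probe sets 1429448_s_at and 1419896_at also had their highest values on LIF replicate 1, at 1214 and 204.7, and 1419897_at lay below the array median on all 9 arrays.

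Tet3, the Tet gene best known from the oocyte and zygote, was dim, with signals of 17.9, 16.8 and 5.04 on the donor replicates, 9.85, 2.30 and 1.92 on the no LIF replicates, and 35.2, 2.48 and 4.61 on the LIF replicates, by 1439324_at. It lay above the array median on 1 of 9 arrays, LIF replicate 1, and its 3 highest values were on the 3 brighter arrays. Donor cultures differed from no LIF by 1.10 (SE 0.76, adjusted p = 0.929 in limma) and were higher in 3 of 3 passages. A common direction over passages in this comparison was seen for 3 of the 20 member probe sets and 22.3% of all probe sets. With array brightness as a block the difference was -0.20. The part of array brightness in the values of the Tet genes was not tested beyond this block, which cannot fully separate brightness from condition.

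Role by role, each gene was centred on its own mean over the 9 arrays and the genes of a role were averaged. The de novo mean minus the Tet mean was -1.83, 0.49 and 1.80 on donor replicates 1 to 3, 1.55, -0.32 and 1.13 without LIF, and -3.90, 1.13 and -0.05 with LIF, on the log2 scale. The balance lay furthest towards the Tet genes on LIF replicate 1 and furthest towards the de novo genes on the alike pair. Its group means were 0.15 ± 1.84 in donor cultures, 0.79 ± 0.98 without LIF and -0.94 ± 2.63 with LIF (SD, n = 3 each). The differences were -0.64 for donor over no LIF, 1.73 for no LIF over LIF and 1.09 for donor over LIF, each under the replicate SD of 1.94. The replicate SD is the spread of single arrays within the groups over all 9 arrays, not the error of a difference between means. Without the replicate 2 arrays of the no LIF and LIF groups the differences were -1.19, 3.32 and 2.12. The last 2 exceed that SD, which still comes from all 9 arrays. The arrays left out were picked by Socs3, which correlates with Dnmt3b and Tet2, so these values are no independent check. With array brightness as a block, donor over no LIF became 1.66. The Tet mean includes Tet3, which was dim and differed most for donor over no LIF, at 1.10, against 0.78 for Tet2 and 0.38 for Tet1. With log2(signal + 1) and log2(signal + 16), the balance for donor over no LIF was -0.75 and -0.44.

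The de novo mean minus the maintenance mean moved less. It was -0.07, 0.55 and 0.95 on the donor replicates, 1.12, -0.95 and -0.20 without LIF, and -2.09, 0.46 and 0.23 with LIF. The differences were 0.48 for donor over no LIF, 0.46 for no LIF over LIF and 0.95 for donor over LIF, each under the replicate SD of 1.06. Without the replicate 2 arrays of the no LIF and LIF groups they were 0.016, 1.4 and 1.41. The last 2 exceed that SD but, as the arrays left out were picked by Socs3, are no independent check. Without the alike pair, no LIF over LIF was -0.10. With array brightness as a block the 3 differences were 1.535, -0.064 and 1.47. These balances describe the 8 genes and were not tested.

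**Figure D3:**
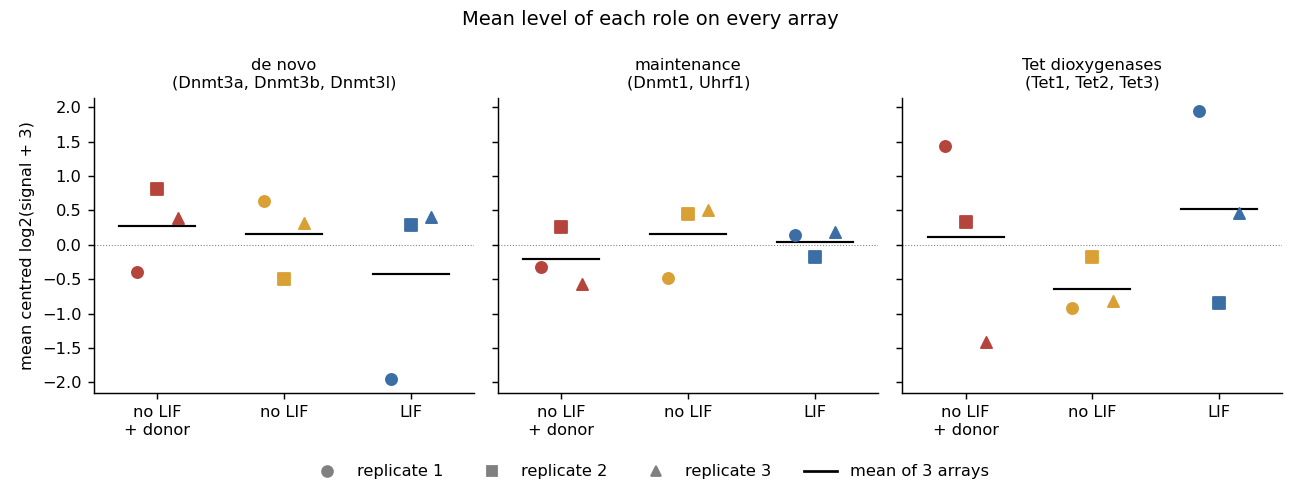
Mean centred log2(signal + 3) of the de novo, maintenance and Tet genes on each array, with donor cultures on the left, no LIF in the middle and LIF on the right of each panel; points are arrays, shapes replicates and lines means of 3. The maintenance panel is the tightest, and the Tet panel spreads from -1.41 to 1.94 with the groups overlapping.

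Because the spread lay within the groups, the members were set against Dnmt3b array by array. Dnmt3b was the reference because an earlier report of these data named it. The p-values below do not account for that choice. From high to low Dnmt3b the arrays ran no LIF 1, donor 3, donor 2, LIF 2, no LIF 3, donor 1, LIF 3, no LIF 2 and LIF 1, an order that mixes the conditions. Over the 9 arrays 7 relations were computed, each with a two-sided exact permutation p and Benjamini-Hochberg adjustment over the 7. Dnmt3a followed Dnmt3b with a Pearson r of 0.859 (exact permutation p = 0.00378, adjusted 0.0265) and a Spearman rho of 0.683 (exact permutation p = 0.0503, adjusted 0.0881). Tet2 ran against it, with r of -0.801 (exact permutation p = 0.00922, adjusted 0.0323) and rho of -0.867 (exact permutation p = 0.00451, adjusted 0.0316). Uhrf1 also ran against it, with r of -0.746 (exact permutation p = 0.0211, adjusted 0.0492) and rho of -0.783 (exact permutation p = 0.0172, adjusted 0.0603). Tet1 missed the threshold, with r of -0.717 (exact permutation p = 0.0300, adjusted 0.0524) and rho of -0.683 (exact permutation p = 0.0503, adjusted 0.0881). For Tet3, Dnmt3l and Dnmt1, r was -0.281 (exact permutation p = 0.463, adjusted 0.648), -0.053 (exact permutation p = 0.892, adjusted 0.975) and -0.012 (exact permutation p = 0.975, adjusted 0.975). Their rho values were -0.033 (exact permutation p = 0.948, adjusted 0.948), -0.30 (exact permutation p = 0.437, adjusted 0.611) and -0.15 (exact permutation p = 0.708, adjusted 0.826).

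As a background, 3.25% of the 13375 other genes had an r with Dnmt3b at or above that of Dnmt3a, 4.91% had one at or below that of Tet2, 7.76% at or below that of Uhrf1 and 9.45% at or below that of Tet1. The rho of Tet2 lost its call after quantile normalization, at -0.80 (adjusted exact permutation p = 0.0892). By their other probe sets, r with Dnmt3b was -0.932 for Uhrf1 (1415811_at) and -0.925 for Tet2 (1455300_at). For Tet1 it was -0.766 (1429448_s_at), -0.568 (1419896_at) and -0.274 (1419897_at), and for Dnmt1 -0.305 (1422946_a_at) and 0.117 (1447877_x_at). These further values were not tested.

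These relations did not keep their calls on every subset of the arrays. Without LIF replicate 1 and no LIF replicate 2, the arrays farthest from the median of Dnmt3b, r was -0.811 for Tet2 (exact permutation p = 0.0329, adjusted 0.231), 0.627 for Dnmt3a (exact permutation p = 0.143, adjusted 0.256), -0.620 for Uhrf1 (exact permutation p = 0.146, adjusted 0.256) and -0.706 for Tet1 (exact permutation p = 0.0827, adjusted 0.256). None of the 7 passed the adjusted threshold there. For Dnmt3a and Uhrf1 r was smaller than over 9 arrays, and for Tet2 it was not. These arrays were picked for their extreme Dnmt3b values, so leaving them out narrows the range of Dnmt3b, which can by itself lower r. It therefore cannot show whether the calls rest on these arrays. Among the 6 arrays that were not brighter, r was -0.879 for Tet2 (exact permutation p = 0.0264, adjusted 0.136), -0.835 for Uhrf1 (exact permutation p = 0.0389, adjusted 0.136) and 0.656 for Dnmt3a (exact permutation p = 0.178, adjusted 0.193). The 3 brighter arrays are too few for a value of their own. Without the alike pair r was -0.685 for Tet2 (adjusted exact permutation p = 0.232), 0.784 for Dnmt3a (adjusted exact permutation p = 0.232) and -0.587 for Uhrf1 (adjusted exact permutation p = 0.242). Without the replicate 2 arrays of the no LIF and LIF groups, the adjusted exact permutation p was 0.0396 for both Dnmt3a (r = 0.918) and Tet2 (r = -0.849) and 0.141 for Uhrf1 (r = -0.693). As those arrays were picked by Socs3, which correlates with Dnmt3b, this subset is no independent check of the relations.

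**Figure D4:**
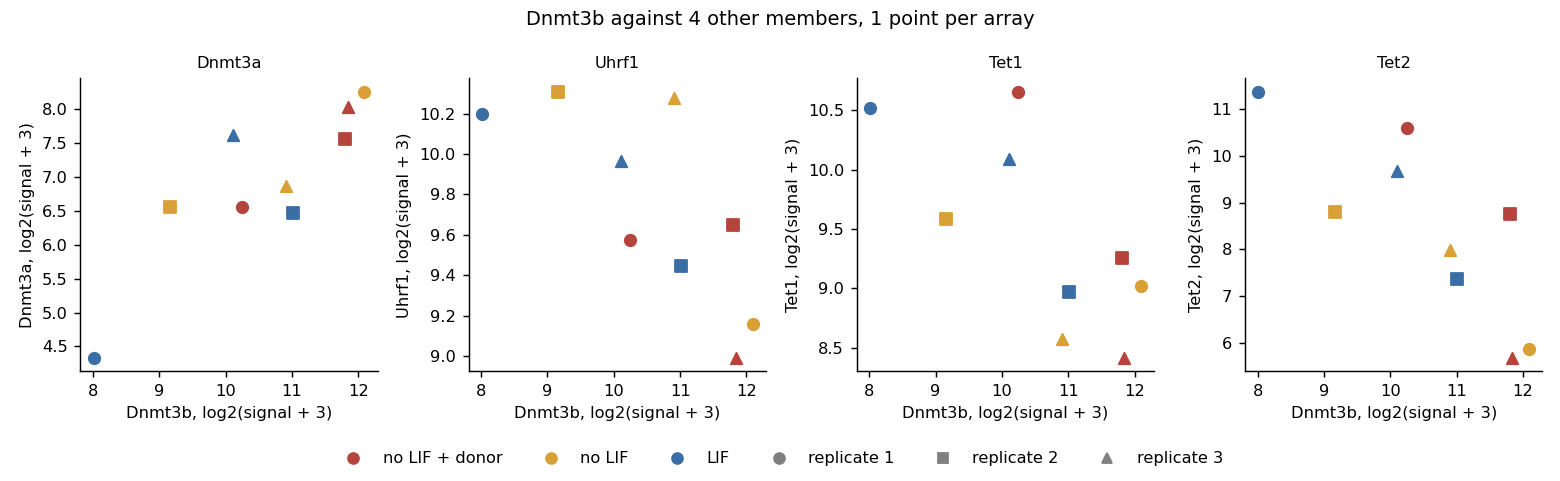
Dnmt3b, as log2(signal + 3), on the horizontal axes against Dnmt3a, Uhrf1, Tet1 and Tet2 on the vertical axes, 1 point per array, with colours for donor, no LIF and LIF cultures and shapes for replicates. Dnmt3a goes up with Dnmt3b (r = 0.859) and Tet2 goes down (r = -0.801), and LIF replicate 1 stands at the low end of Dnmt3b in each panel.

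Genes that mark the state of the cells were read on the same arrays. Fgf5, a growth factor of the primed epiblast, read 44.1, 82.6 and 567.2 on the donor replicates, 520.98, 0.576 and 19.1 on the no LIF replicates, and 0.888, 56.6 and 0.710 on the LIF replicates, so the alike pair that led Dnmt3b also led Fgf5. Klf4, a naive pluripotency factor, read 1368, 625.1 and 233.3 on the donor replicates, 197.1, 2542 and 698.1 on the no LIF replicates, and 2482, 1062 and 1863 on the LIF replicates. Its lowest arrays were the alike pair, where Dnmt3b was high and Tet2 low. For the general pluripotency factors Pou5f1 and Nanog, r over the 9 arrays was 0.158 and -0.471 with Dnmt3b and -0.628 and -0.019 with Tet2. These values were not tested. Pou5f1 read 958.3, 1096 and 3044 on the donor replicates, 3211, 2562 and 2490.55 on the no LIF replicates, and 1711, 1401 and 1874 on the LIF replicates, and was highest on the alike pair. Nanog read 847.2, 271.4 and 895.8 on the donor replicates, 962.06, 1339.6 and 832.9 on the no LIF replicates, and 1120.3, 669.3 and 539 on the LIF replicates, with its top value on no LIF replicate 2 and its lowest on donor replicate 2. Prdm14, which represses Dnmt3b in naive cells, read 173.4, 38.2 and 65.9 on the donor replicates, 46.8, 319.2 and 82.9 on the no LIF replicates, and 332.5, 30.8 and 103.99 on the LIF replicates, with its highest values on the arrays where Dnmt3b was lowest. The summed signal of 5 primed epiblast markers was 655.2 to 1789 in donor cultures, 169.96 to 1849 without LIF and 219.1 to 457.97 with LIF. Of these markers 0 of 5 passed the test in any comparison, and their median log2 difference was 0.78 for donor over no LIF, 0.93 for no LIF over LIF and 1.17 for donor over LIF. The same medians over all genes were -0.02, 0.01 and -0.01. Other marker lists had 0 called as well. Their medians in the same 3 comparisons were 0.79, 0.23 and 1.06 for mesendoderm, 0.71, -0.61 and 0.21 for neuroectoderm, 0.73, -0.84 and -0.33 for trophoblast, 0.14, -0.94 and -0.71 for primitive endoderm and -0.05, 0.23 and 0.18 for fibroblast or feeder markers. The embryonic stem cell markers had medians of -0.38, 0.21 and -0.30, and 8 of 8 were lower in donor cultures than without LIF. The primed epiblast list was thus not the only one above the all-gene median in donor cultures. All 9 arrays had Otx2, Pou3f1 and Sox3 above the array median, and 6 had Fgf5 and Zic2 above it. Summed signals of 4 mesendoderm markers (Mixl1, Eomes, Gsc and Mesp1) were 824.4 and 828.9 on the alike pair and 57.2 to 343.9 on the other 7 arrays. The part of such cell states in the Dnmt3b and Tet2 values was not tested, and in these bulk samples fewer cells of a type and less RNA per cell cannot be told apart.

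**Figure D5:**
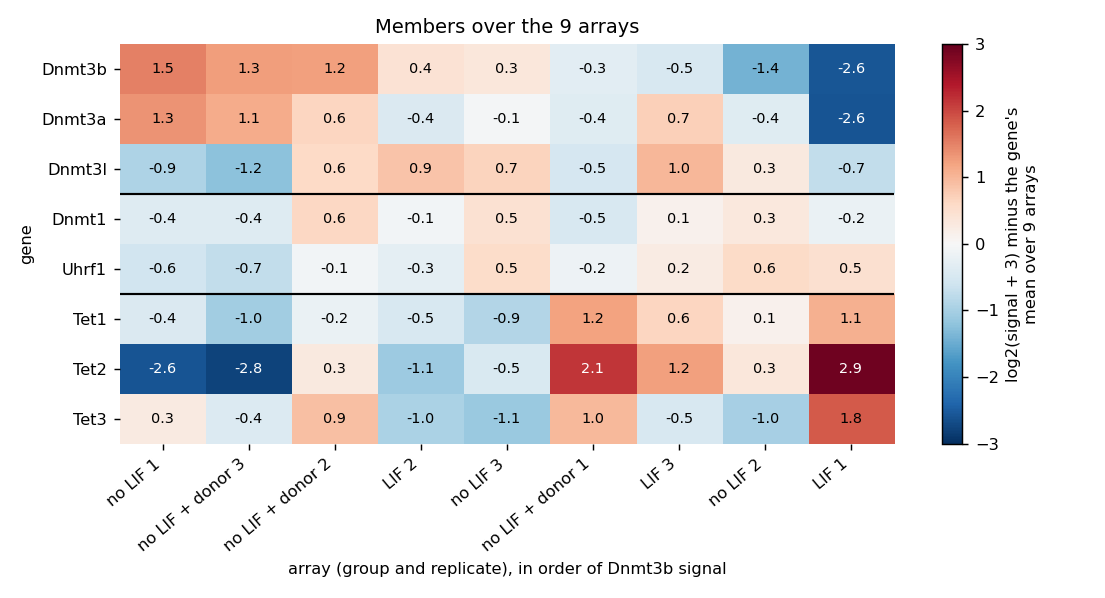
Log2(signal + 3) of each gene minus its mean over the 9 arrays, with genes down the page by role and arrays across it from high to low Dnmt3b. Dnmt3a shades with Dnmt3b, Tet2 shades the opposite way from -2.78 to 2.92, and Dnmt1 and Uhrf1 stay within 0.74 of their means.

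By the highest Pearson r of log2 signal over the 9 arrays, the genes most like Dnmt3b were Spata13 (0.981), Zfp639 (0.979), Dpysl5 (0.970), Acsl5 (0.970) and Ina (0.969). Those most like Tet2 were Pcnx3 (0.992), Cd37 (0.984), Tbc1d24 (0.984), Adarb1 (0.981) and Gpr180 (0.981). Pcnx3 read 506.5, 334.7 and 159.3 on the donor replicates, 174.2, 314.8 and 305.2 on the no LIF replicates, and 704.5, 248.8 and 411.3 on the LIF replicates, again lowest on the alike pair. Dnmt1 was most like Zfand2b (0.970), Prph (0.962), Dhx34 (0.961), Ehmt2 (0.958) and Pwwp3a (0.957), of which Ehmt2 encodes a histone H3 lysine methyltransferase. Uhrf1 was most like Slc27a3 (0.983), Ppm1j (0.983), Galt (0.980), Ckmt1 (0.976) and Fbxo6 (0.970). Dnmt3l was most like Tinagl1 (0.958), Selenom (0.949), Klhl13 (0.948), Niban2 (0.944) and Dusp9 (0.943). For Dnmt3a the 5 were Zfp454 (0.960), Nat2 (0.943), Tmem126b (0.943), Hspa4 (0.941) and Trib2 (0.938), for Tet1 Cped1 (0.969), Tiam2 (0.958), Atcayos (0.956), Mfsd14a (0.953) and Rbm4b (0.951), and for Tet3 E330017L17Rik (0.994), Prrc2c (0.978), Ccl25 (0.976), Hnrnpab (0.969) and Calhm2 (0.964). These are the top values among 13376 genes over 9 points that share array brightness, so they carry no p. Some of these genes were dim, with mean signals of 8.81 for E330017L17Rik, 12.6 for Nat2 and 14.6 for Cped1.

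Partners of these enzymes did not pass the test either, with 0 called in each of 7 lists and each comparison, where 0% of all probe sets were called. Among all 13376 genes, 47.6%, 50.4% and 49.1% were higher in donor over no LIF, no LIF over LIF and donor over LIF. Of 12 maintenance partners, 2 were higher in donor cultures than without LIF (median log2 difference -0.24), 10 higher without LIF than with it (0.21) and 5 higher in donor cultures than with LIF (-0.01). Pcna, the replication clamp, averaged 3466 ± 1315 in donor cultures, 4055 ± 1028 without LIF and 3579.7 ± 848 with LIF, and Trim28, a corepressor, 4185 ± 1023 in donor cultures, 4276 ± 773 without LIF and 3797 ± 436 with LIF (SD, n = 3 each). Of 14 S phase genes, needed for replication, 2, 11 and 6 were higher in the same 3 comparisons, with medians of -0.26, 0.17 and -0.10; the brightest were Mcm7 and Mcm5. Of 7 measured methyl-CpG readers, 5, 3 and 3 were higher (medians 0.24, -0.55 and -0.06), Mbd3 and Zbtb33 being the brightest. Of 12 measured base excision and demethylation partners, 2, 7 and 2 were higher (medians -0.30, 0.03 and -0.22), Parp1 and Apex1 being the brightest. Of 6 regulators of the methyltransferase genes, 1, 5 and 3 were higher (medians -0.29, 0.23 and -0.01), Sall4 and Nanog being the brightest.

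Of 9 measured genes for methyl donor and 2-oxoglutarate supply, 0, 6 and 4 were higher in these comparisons, with medians of -0.30, 0.13 and -0.07. Ahcy, which clears the product of methyl transfer, averaged 2469.6 ± 1023 in donor cultures, 3527 ± 364 without LIF and 1754 ± 381 with LIF (SD, n = 3 each). No LIF over LIF was 1.02 (SE 0.33) for Ahcy, with an unadjusted p of 0.0107 and an adjusted p of 0.973 in limma. In that comparison 2 of the 9 genes had an unadjusted p under 0.05, against 1.54% of all tested probe sets. The other was Gnmt, dim at means of 28.0 without LIF and 7.10 with LIF. It differed by 1.77 (SE 0.48), with an unadjusted p of 0.00368 and an adjusted p of 0.973 in limma. Ahcyl1, a relative of Ahcy, differed by 0.48 (SE 0.33, adjusted p = 0.973 in limma) in the same comparison. Of 11 tested germ line genes that DNA methylation is known to silence, 3, 8 and 6 were higher, with medians of -0.62, 0.13 and 0.11. Several were dim, such as Sycp1 (group means 8.09 to 10.4) and Asz1 (6.13 to 14.3), which limits these counts and medians. Sycp3, of the meiotic chromosome axis, averaged 146 ± 181 in donor cultures, 191 ± 136 without LIF and 63.95 ± 31.4 with LIF, and Ddx4, a germ cell helicase, 101 ± 60.3 in donor cultures, 154 ± 54.95 without LIF and 80.2 ± 43.7 with LIF (SD, n = 3 each). DNA methylation itself was not measured on these arrays.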

How the data were processed

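Total RNA of 9 samples was hybridised to Affymetrix Mouse Genome 430 2.0 arrays, 1 array per sample. The deposited values are probe set signal intensities on a linear scale; per the labels' design text the authors used GeneChip Operating System 1.4.0.036 and scaled globally. MAS5 is named by the submitters' processing notes. The 2% trimmed mean of every array was 100.

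Intensities from 0.0144 to 17201 were turned to log2(signal + 3), so differences of dim probe sets are understated. The 64 control probe sets were left out, and 29811 probe sets that reached an array's 40th percentile on 3 or more arrays were tested, with no other normalization. Names came from the platform annotation, where 34945 probe sets carry 1 symbol, 932 several and 9160 none; several symbols gave no name. The brightest probe set stood for a gene in differences.

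The 3 comparisons came from 1 fit over all arrays in limma 3.58.1 under R 4.3.3 (lmFit and trended eBayes). Tests were two-sided with Benjamini-Hochberg adjustment over all tested probe sets at 0.05. The fit was tested on simulated data, where recovery of changes was required only at a spread smaller than that of these arrays. That test does not show which changes the fit can detect at their own spread. Correlations used exact permutation tests over all orders of the arrays, computed with numpy 2.4.6, with ranks from scipy 1.17.1. Median log2 differences over all tested probe sets were 0.08 for donor over no LIF, -0.10 for no LIF over LIF and 0.02 for donor over LIF; median centring made them -0.15, 0.12 and 0.02 and quantile normalization -0.07, 0.05 and 0.01.

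The members and lists were chosen with earlier results of these data known. The text names all members with every probe set, Socs3, Klf4, Pou5f1, Nanog, Fgf5 and Prdm14, the 2 brightest members of each list where none was called, and the 5 genes most like each member. Of the lists, 1 methyl-CpG reader, 3 base excision partners, 3 supply genes and 2 germ line genes were not tested. Promoters are those of RefSeq on GRCm38.p6. Alternatives covered the pseudocount, filter, normalization, trend, arrays fitted, replicate block, brightness block and choice of probe set, and leaving out arrays.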

Additional observations from a re-analysis of the deposited data

How the results depend on the processing

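Under every alternative the count of probe sets called stayed at 0 in each comparison, members included; at an unadjusted p under 0.05 the counts with the replicate block were 1602, 493 and 471 for donor over no LIF, no LIF over LIF and donor over LIF, against 1498, 459 and 578 without it. Replicate numbers stand for passages, and deviations of same-numbered arrays correlated from -0.60 to 0.65. Without the replicate 2 arrays of the no LIF and LIF groups the unadjusted counts were 1016, 2444 and 1377, without the alike pair 3564, 788 and 1185, and with array brightness as a block 676, 294 and 1653. Directions that turned, with no call on either side, were these log2 differences. For donor over no LIF, Dnmt3a was -0.074 under median centring and -0.18 without the replicate 2 arrays, where Dnmt3b was -0.20; with brightness as a block Tet1 was -0.46, Tet2 -1.50, Tet3 -0.20 and de novo minus Tet 1.66. For no LIF over LIF, Dnmt3l was 0.10 without the alike pair, and Uhrf1 was -0.080 under quantile normalization, -0.36 without the replicate 2 arrays and -0.056 as a mean of its probe sets; de novo minus maintenance was -0.10 with the alike pair left out and -0.064 under the brightness block. For donor over LIF, without the alike pair Dnmt1 was 0.11, Tet1 0.094 and Tet2 0.20; Tet3 was -0.19 without the replicate 2 arrays and -0.30 with brightness as a block. With each array left out in turn, donor over no LIF ran from -0.18 to 0.67 for Dnmt3a, -0.20 to 1.26 for Dnmt3b, -0.86 to 0.044 for Dnmt3l, -0.23 to 0.90 for Tet1 and -0.34 to 2.12 for Tet2. No LIF over LIF ran from 0.18 to 1.82 for Dnmt3a and 0.16 to 1.79 for Dnmt3b, lowest without LIF replicate 1, and from -0.92 to 0.10 for Dnmt3l, -0.17 to 0.42 for Uhrf1 and -1.30 to 0.11 for Tet3. Donor over LIF ran from -0.40 to 0.16 for Dnmt1, -1.03 to 0.094 for Tet1, -2.26 to 0.20 for Tet2 and -0.19 to 1.21 for Tet3. De novo minus Tet ran from -1.46 to 0.35, 0.25 to 2.76 and -0.39 to 2.12 in the 3 comparisons, and de novo minus maintenance from 0.02 to 1.05, -0.35 to 0.93 and 0.13 to 1.41.

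Correlations with Dnmt3b changed as follows. Under median centring r was 0.089 for Dnmt3l, 0.268 for Dnmt1, -0.521 for Uhrf1 (adjusted exact permutation p = 0.263) and -0.749 for Tet1 (adjusted exact permutation p = 0.0453). On the 6 dimmer arrays it was 0.656 for Dnmt3a, -0.835 for Uhrf1, -0.879 for Tet2 and 0.627 for Tet3. With the replicate 2 arrays left out it was 0.122 for Dnmt1 and -0.693 for Uhrf1. Without the alike pair it was 0.784 for Dnmt3a, 0.655 for Dnmt3l, 0.448 for Dnmt1, -0.587 for Uhrf1 and -0.685 for Tet2. Without the 2 arrays farthest from the Dnmt3b median it was 0.627 for Dnmt3a, -0.620 for Uhrf1, -0.811 for Tet2 and 0.146 for Tet3. The causes were not tested. Dnmt3l has no value by probe sets ending in _at or _a_at. Tet3 lay near the floor of the signals, which limits its differences.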
